A study of Mus musculus with 9 samples.

Results

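The S100 genes encode small calcium-binding proteins, each with a pair of EF-hand motifs, and 8 of them were followed here across cultured adult mouse neural stem cells (NSCs). The members were S100a1, S100a4, S100a6, S100a10, S100a11, S100a13, S100a16 and S100b, found by matching the Ensembl identifiers of the expression table to these symbols, and they are 8 of the 55704 genes in the table. S100 proteins mostly act as dimers that change shape when calcium binds and then dock onto partner proteins such as annexins, myosins, cytoskeletal proteins and kinases. S100A10 is the exception, since it no longer binds calcium and works in a stable complex with annexin A2. Some members also leave the cell and act on receptors such as the receptor for advanced glycation end products, encoded by Ager, or Toll-like receptor 4, encoded by Tlr4. In the brain S100B is known as a protein of astrocytes and ependymal cells, while S100A4, S100A6, S100A10 and S100A11 are better known from fibroblasts, epithelia and migrating cells.

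NSCs had been isolated from the subventricular zone, the stem cell niche along the lateral ventricles, of C57BL/6 mice of 8 to 9 weeks, and each isolation pooled 2 female and 2 male animals. After at least 3 passages with bFGF and EGF the cells were plated for 16 to 18 h. They were then either harvested at day 0 (bFGF/EGF-treated NSCs, the proliferating control) or switched for 6 days to medium with bFGF and BMP4 (bFGF/BMP4-treated NSCs) or with BMP4 and no bFGF (BMP4-treated NSCs), each factor at 20 ng/ml. Each group had 3 libraries, called biological replicates without saying whether they came from separate isolations, so the p-values measure the spread between these libraries. No transgene or sort set the groups apart. The control differed from both BMP4-containing groups in EGF, in BMP4 and in 6 days of further culture, which cannot be told apart, whereas the groups with and without bFGF shared their time in culture.

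In GRCm39 coordinates, 7 of the members lie on mouse chromosome 3 and S100b lies alone at chr10:76085090-76097159 on the plus strand. Along chromosome 3 come S100a13 (chr3:90416091-90431912, plus strand), S100a1 (chr3:90418340-90421848, minus strand), S100a16 (chr3:90444172-90450462, plus strand), S100a4 (chr3:90511074-90513354, plus strand) and S100a6 (chr3:90520140-90535843, plus strand), all within 119.8 kb. S100a11 (chr3:93414382-93435293) and S100a10 (chr3:93462213-93474510), both on the plus strand, follow 2.88 Mb further on and are 26.9 kb apart. RefSeq start sites were given for 7 of the 8 members in a table of promoters, S100a10 having no entry, and the stretches printed here were placed on GRCm39 by an exact match. The gene spans are those of GENCODE vM39, and the RefSeq start of each of these genes lies inside its span, so the stretches lie partly or wholly within annotated gene models. They show the bases before the starts of members whose levels separated the groups most clearly, so that neighbours with like and unlike patterns can be compared. Between the divergent starts of S100a1 and S100a13 lie 104 bases (chr3:90421638-90421741), and 150 bases are given before S100a4 (chr3:90510927-90511076), S100a6 (chr3:90520051-90520200), S100a11 (chr3:93427653-93427802) and S100b (chr10:76089520-76089669), all read 5′ to 3′ on the plus strand.
S100a1 to S100a13: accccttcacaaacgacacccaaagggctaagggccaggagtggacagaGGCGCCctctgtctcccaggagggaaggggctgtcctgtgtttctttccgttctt
S100a4: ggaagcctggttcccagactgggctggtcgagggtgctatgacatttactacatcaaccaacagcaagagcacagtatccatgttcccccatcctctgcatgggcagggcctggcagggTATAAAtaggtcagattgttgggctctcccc
S100a6: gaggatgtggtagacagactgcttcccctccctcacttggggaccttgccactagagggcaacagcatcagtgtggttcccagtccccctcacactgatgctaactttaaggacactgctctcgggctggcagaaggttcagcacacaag
S100a11: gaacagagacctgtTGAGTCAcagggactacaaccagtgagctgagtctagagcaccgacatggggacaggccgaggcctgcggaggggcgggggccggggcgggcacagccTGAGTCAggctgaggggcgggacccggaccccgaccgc
S100b: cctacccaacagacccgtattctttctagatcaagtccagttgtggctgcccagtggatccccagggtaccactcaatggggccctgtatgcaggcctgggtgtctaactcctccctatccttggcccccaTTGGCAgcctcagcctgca
Capitals mark GGCGCC, a GC element that BMP-activated SMAD proteins can bind, between S100a1 and S100a13, TATAAA, the TATA box, before S100a4, matches of TGANTCA, the AP-1 motif, before S100a11, and TTGGCA, a hexamer that nuclear factor I can bind, before S100b. All of them were searched on both strands together with GGGCGG, the GC box, and CACGTG, an E-box, and none of these motifs was found in the 150 bases before S100a6. Over the 250 bases before all 32851 RefSeq starts, GGCGCC occurred in 9.59% of windows, TATAAA in 12.4%, TGANTCA in 6.75%, TTGGCA in 12.3%, GGGCGG in 32.7% and CACGTG in 6.02%. The TATAAA before S100a4 spanned bases 31 to 26 before the start, and the AP-1 matches before S100a11 ended 130 and 32 bases before it. A match describes the letters only, and binding was not measured in this series.

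Values are FPKM, fragment numbers scaled to the length of the gene and the depth of the library, and the 9 libraries held 15892523 to 17419366 fragments on genes as rebuilt from these values. Sox2, a transcription factor that marks NSCs, stood at 167 ± 36, 137 ± 12 and 137 ± 13 FPKM (SD, n = 3) in the control, with bFGF/BMP4 and with BMP4, and Nes, which encodes the progenitor filament nestin, at 151, 3.55 and 15.8 FPKM. A change was called in limma at an adjusted p of at most 0.05 with a difference of at least 2-fold, over the 20207 genes with a mean of at least 0.1 FPKM. All 8 members passed that filter, S100a4 only through its level in BMP4-treated NSCs, so the filter favoured a higher level there. Replicate 2 of the bFGF/EGF group and replicate 2 of the BMP4 group were the highest of their groups for 7 of 8 members each. In these libraries genes under 1000 bases, as S100a1, S100a4, S100a11 and S100a13 are by the lengths behind the deposited values, stood a median of 0.10 and 0.18 log2 units above their group means, genes of 1000 to 3000 bases 0.15 and 0.21, and genes of 3000 bases and over 0.02 and -0.03. Without both libraries, 6, 6 and 4 members were called in the comparisons of BMP4 with bFGF/EGF, of bFGF/BMP4 with bFGF/EGF and of BMP4 with bFGF/BMP4, in place of 6, 6 and 5.

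The members did not move as a block. In BMP4-treated NSCs compared with bFGF/EGF-treated NSCs, 5 members rose (S100a1, S100a4, S100a6, S100a13 and S100b) and 1 fell (S100a10). Of all genes tested 36.6% were called in that comparison, 21.3% higher and 15.4% lower, and 54.9% passed the adjusted p alone. The libraries of the groups did not overlap for 6 members that were higher and 1 that was lower, where 32.6% and 27.8% of all genes did so. In bFGF/BMP4-treated NSCs compared with the same control, 4 members rose (S100a1, S100a4, S100a13 and S100b) and 2 fell (S100a10 and S100a11), against 30.6% of all genes called, 16.5% higher and 14.1% lower, and 48.6% passed the adjusted p alone. There the groups did not overlap for 4 higher and 2 lower members, and for 30.2% and 27.5% of all genes. Both comparisons share the control libraries, and in bulk RNA fewer cells with a transcript and less of it per cell cannot be told apart. When BMP4-treated NSCs were compared with bFGF/BMP4-treated NSCs, 5 members were higher without bFGF (S100a4, S100a6, S100a10, S100a11 and S100a16) and 0 lower, against 13.5% of all genes called, 8.41% higher and 5.14% lower, and 21.1% passed the adjusted p alone. In this comparison 7 members were higher and 1 was lower without overlap, against 20.5% and 18.3% of all genes. S100a4 passed the filter only through BMP4. It had to lie above the control, where it was absent, and the filter favoured a higher level than with bFGF/BMP4 without fixing that order. The median log2 fold change of the members was 2.98, 0.84 and 1.93 in the 3 comparisons, beside 0.10, 0.06 and 0 over all genes tested. The second falls to 0.60 with S100a4, absent from the control libraries, set there to a floor of 3 fragments.

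**Figure D1:**
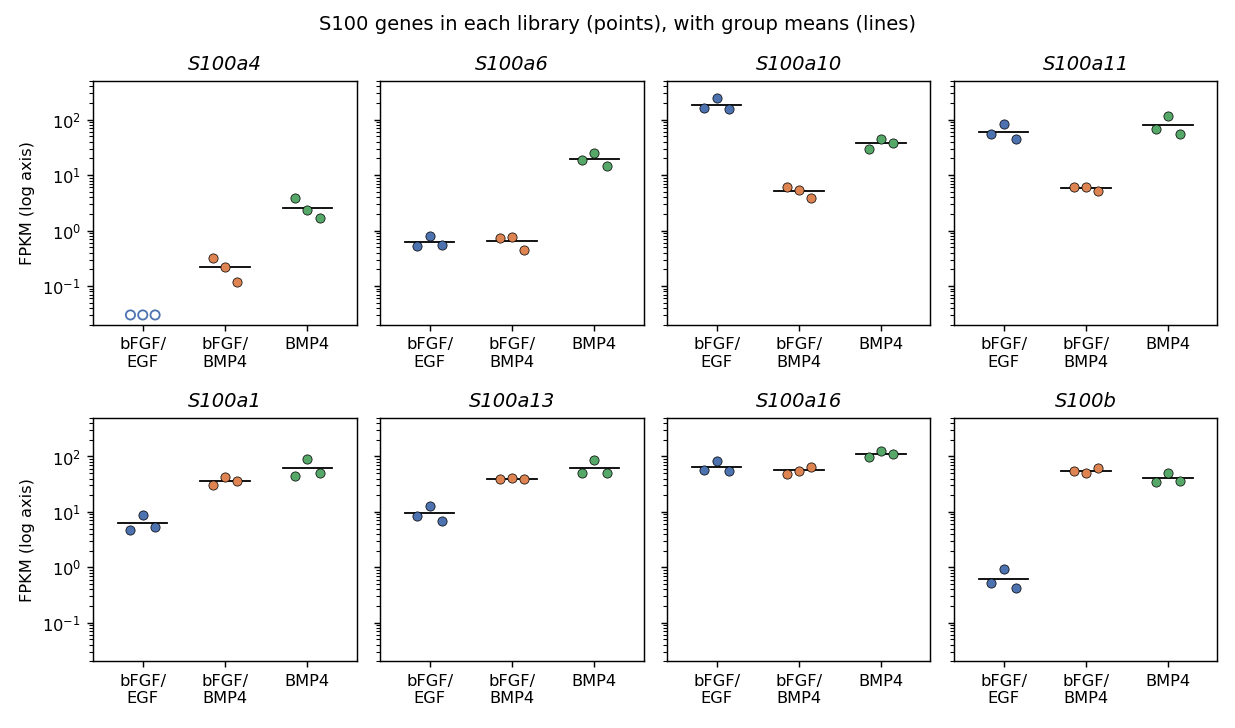
FPKM of the 8 S100 genes in each of the 9 libraries on a log axis, with points for libraries, lines for group means and open circles for libraries listed at 0. S100b lay between 0.419 and 0.937 FPKM in bFGF/EGF-treated NSCs and at 34.2 or more in the other 6 libraries, while S100a6 stayed under 0.8 FPKM in the 6 libraries with bFGF in the last medium and reached 14.9 to 25.6 with BMP4 alone.

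S100b, the S100 gene most used to mark astrocytes, had the largest fold from the control among the members detected there, S100a4 being listed at 0 in that group. It stood at 0.515, 0.937 and 0.419 FPKM in the bFGF/EGF libraries, at 54.7, 49.9 and 60.7 FPKM in the bFGF/BMP4 libraries and at 34.2, 49.8 and 36.3 FPKM in the BMP4 libraries. The control libraries lay far below all others, and the bFGF/BMP4 libraries lay just above the BMP4 libraries. S100b rose 88.2-fold with bFGF/BMP4 (log2 fold change 6.31 ± 0.24 SE, adjusted p = 7.7e-08) and 64.3-fold with BMP4 alone (5.84 ± 0.24, adjusted p = 8.8e-08). Between the BMP4-containing groups the log2 difference was -0.47 (95% interval -1.02 to 0.07, adjusted p = 0.22), which did not pass the test. S100b is one of the markers by which the study scored astrocytes. Among the possible receptors of the secreted protein, Ager stood at 0.187, 0.692 and 0.652 FPKM in the 3 groups, on 20, 69 and 68 fragments. It passed the test with bFGF/BMP4 (log2 fold change 1.40, adjusted p = 0.046) but not with BMP4 (1.26, adjusted p = 0.06). Between the BMP4-containing groups the difference of Ager was not called (-0.13, adjusted p = 0.9). Tlr4 rose with bFGF/BMP4 from 0.279 ± 0.06 to 1.13 ± 0.21 FPKM (adjusted p = 0.00049) and was lower with BMP4 alone than with bFGF/BMP4, at 0.467 ± 0.078 FPKM (log2 fold change -1.11, adjusted p = 0.014).

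S100a1 and S100a13 share a divergent start region and rose side by side in both BMP4-containing media. S100A1 is best known from heart and skeletal muscle, where it acts on ryanodine receptors and the calcium pump SERCA, and S100A13 takes part in the release of FGF1, which has no signal peptide, together with synaptotagmin 1. S100a1 measured 4.75, 8.84 and 5.30 FPKM in bFGF/EGF-treated NSCs, 30.0, 42.9 and 36.1 FPKM in bFGF/BMP4-treated NSCs and 44.4, 88.2 and 50.9 FPKM in BMP4-treated NSCs. S100a13 measured 8.56, 12.9 and 6.97 FPKM, then 39.7, 40.5 and 39.2 FPKM, then 49.9, 86.7 and 50.9 FPKM in the same order. For both genes the 3 groups did not overlap and the order was control, bFGF/BMP4, BMP4. S100a1 rose 5.78-fold with bFGF/BMP4 (log2 fold change 2.55, adjusted p = 6.1e-05) and 9.72-fold with BMP4 (3.25, adjusted p = 8.7e-06). S100a13 rose 4.2-fold (2.11, adjusted p = 8.3e-05) and 6.59-fold (2.71, adjusted p = 1.1e-05). The further step from bFGF/BMP4 to BMP4 was not called for either, at 0.70 log2 units for S100a1 (95% interval 0.05 to 1.35) and 0.60 for S100a13 (0.04 to 1.16), both with an adjusted p of 0.13.

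S100a1 and S100a13 lie on opposite strands and share 2563 exon bases in the current GENCODE annotation. Whether strand was used in counting is not given in the sources used here, so reads from the shared bases cannot be told apart. The gene lengths behind the deposited values, 694 bases for S100a1 and 715 for S100a13, are shorter than the 2895 and 4708 exon bases of that annotation, so the overlap counted by the authors may differ. The ratio of S100a1 to S100a13 FPKM was 0.555, 0.684 and 0.761 in the control libraries, 0.757, 1.06 and 0.923 with bFGF/BMP4 and 0.89, 1.02 and 1.00 with BMP4. Over the 9 libraries, which share their 3 groups, the log2 levels of S100a1 and S100a13 correlated with r = 0.993, and S100a13 ranked 3 of 7898 genes by likeness to S100a1. Of the S100A13 partners, Fgf1 rose from 15.6 ± 4.1 to 124 ± 16 FPKM with bFGF/BMP4 (log2 fold change 3.00, adjusted p = 1.2e-06) and to 79.5 ± 9.7 with BMP4 (2.36, adjusted p = 3.9e-06). Syt1, which encodes synaptotagmin 1, fell from 3.83 ± 0.44 to 0.137 ± 0.08 FPKM (adjusted p = 1.2e-05) and to 0.371 ± 0.22 FPKM (adjusted p = 4.5e-05). Among S100A1 targets, Atp2a2, which encodes SERCA2, was at 101, 110 and 169 FPKM and stayed under the 2-fold limit in each comparison, with log2 differences of 0.12 to 0.74. Of the ryanodine receptor genes, Ryr3 was at 0.392 ± 0.063, 0.0907 ± 0.029 and 0.222 ± 0.049 FPKM and fell with bFGF/BMP4 (log2 fold change -1.37, adjusted p = 0.0052), Ryr2 was called in no comparison, and Ryr1 was under the filter.

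S100a6 and S100a4, whose genes are 6.79 kb apart, were high with BMP4 alone. S100A6, or calcyclin, binds the ubiquitin ligase adaptor encoded by Cacybp, and S100A4 binds the heavy chain of non-muscle myosin IIA, encoded by Myh9, and loosens its filaments. S100a6 stood at 0.516, 0.786 and 0.538 FPKM in bFGF/EGF-treated NSCs, at 0.729, 0.763 and 0.448 FPKM in bFGF/BMP4-treated NSCs and at 18.4, 25.6 and 14.9 FPKM in BMP4-treated NSCs. The first groups overlapped and every BMP4 library lay far above them. S100a6 was 32-fold higher with BMP4 than in the control (log2 fold change 4.77 ± 0.27 SE, adjusted p = 4.6e-07) and 30.4-fold higher than with bFGF/BMP4 (4.72 ± 0.27, adjusted p = 4.1e-06). Between bFGF/BMP4 and the control the log2 difference of S100a6 was 0.06 (95% interval -0.54 to 0.65, adjusted p = 0.89), and its sign turned in 6 alternatives.

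S100a4 was listed at 0 in the 3 control libraries, at 0.320, 0.223 and 0.116 FPKM with bFGF/BMP4 and at 3.80, 2.33 and 1.66 FPKM with BMP4. These values stand for 0 fragments in the control, 6 in all with bFGF/BMP4 and 74 with BMP4, and the groups did not overlap. Against a floor of 3 fragments over the control group, S100a4 was 25.5-fold higher with BMP4 (adjusted p = 4.6e-06). Against the same floor it was 2.19-fold higher with bFGF/BMP4 (adjusted p = 0.0053), a call on 6 fragments that was lost with a pseudocount of 1 (adjusted p = 0.25). The floor takes the fragments of the other group as exact, so these folds are not strict lower limits. BMP4 exceeded bFGF/BMP4 11.6-fold in fragments per library size (95% counting interval 5.09 to 32.7, adjusted p = 0.00032), and the interval covers counting error only. Since S100a4 passed the filter only through its level with BMP4, the filter favoured a higher level there. It had to lie above the control, while its order against bFGF/BMP4 was not fixed. Both comparisons with BMP4 are a description.

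S100a3, which lies on the other side of S100a4 and is not a member, was likewise highest with BMP4, at a lower level. It measured 0.461, 0.624 and 0.386 FPKM with BMP4, on 64 fragments, against 3 fragments in each of the other groups. That was 20.1 times the bFGF/BMP4 level (95% counting interval 6.58 to 100) and 22 times the control level (7.2 to 110). S100a3 passed the filter only through its level with BMP4, so it had to differ there, and the values are a description. Of the 10 further S100 genes in the table, S100a3 was the only one with a mean over 0.1 FPKM across the 9 libraries, and S100a5, which lies between S100a4 and S100a6, was at 0 in all 9 libraries, as were S100a8 and S100a9, the calprotectin genes of neutrophils, and S100a7l2. S100a2 and S100a14 reached at most 0.109 and 0.252 FPKM in a library. S100a16, S100a13 and S100a1 lie in the same 119.8 kb with other orders of levels, drawn in the plot along the chromosome. Of 7 genes of the fused S100 type, Tchh was the only one above 0, and it was not called.

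**Figure D2:**
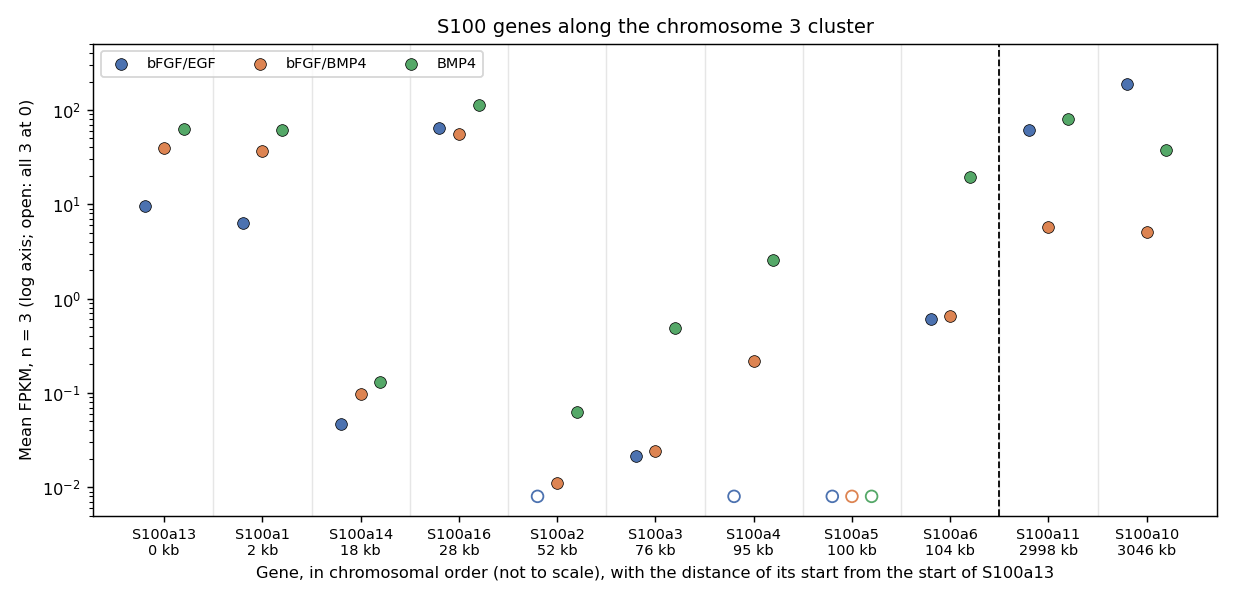
Mean FPKM (log axis, n = 3 libraries per group) of the S100 genes of chromosome 3 in their order along the chromosome, with the distance of each start from that of S100a13, and open circles where all libraries of a group were at 0. S100a3, S100a4 and S100a6 were highest with BMP4 and low or at 0 with bFGF/EGF, whereas S100a10, beyond the dashed break of 2.88 Mb, was highest with bFGF/EGF at 188 FPKM.

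Of the partners of S100A6 and S100A4, Cacybp was at 56.1 ± 9.4, 25.7 ± 1.5 and 36.9 ± 7.3 FPKM and fell past the 2-fold limit with bFGF/BMP4 (log2 fold change -1.11, adjusted p = 0.00035). Sugt1, which encodes a co-chaperone that S100A6 binds, passed no test and stood between 7.8 and 9.23 FPKM in the group means. Myh9 was at 34.1, 20.6 and 19 FPKM, under the 2-fold limit in each comparison. Myh10, which encodes the heavy chain of non-muscle myosin IIB, was at 32.2, 13.6 and 30 FPKM and fell with bFGF/BMP4 (log2 fold change -1.23, adjusted p = 1e-04). Trp53, whose protein binds several S100 proteins, fell from 29.5 ± 3.2 to 10.1 FPKM in both BMP4-containing groups (adjusted p = 5.5e-06 with bFGF/BMP4 and 3.7e-06 with BMP4).

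Markers of other cell types moved with some of these levels. Of 12 ependymal markers 7 were tested, and those 7 were called higher with BMP4 in both comparisons with that group. Ccdc153 (0.0303, 0.0737 and 0.653 FPKM in the 3 groups) and Enkur (0.154, 0.0841 and 1.29 FPKM) passed the filter only through their level with BMP4. Ccdc153 therefore had to be higher with BMP4, and for Enkur the filter favoured that order without fixing it. Over all genes tested, 21.3% were called higher with BMP4 than in the control and 8.41% higher than with bFGF/BMP4. With a pseudocount of 1, 4 of the ependymal markers were called compared with the control. The other 5 were too low to be tested, and among them the cilia genes Hydin and Ak7 were lower with BMP4 in value, Hydin at 0.0863 FPKM in the control and 0.00562 with BMP4 on 79 and 5 fragments, and Ak7 at 0.0845 and 0.0341 FPKM. Dnah5, which encodes a dynein heavy chain of cilia, was higher in value, at 0.00125 and 0.268 FPKM. The 12 markers summed to 10 to 15.7 FPKM in the control, 12.4 to 13.8 with bFGF/BMP4 and 72.6 to 89.4 with BMP4, with Foxj1, the master regulator of motile cilia, at 8.26, 10 and 55.1 FPKM and Tmem212 at 0 throughout. Their part in the levels of S100a6, S100a4 and S100a3 was not tested. For fibroblasts and vessel cells, the 12 markers summed to 0.165 to 0.269 FPKM in the control, 0.939 to 1.22 with bFGF/BMP4 and 1.52 to 2.04 with BMP4. Of the 3 that were tested, 2 were called higher with BMP4 than in the control and 0 lower, Rgs5 at 0.043, 0.621 and 0.949 FPKM and Pdgfrb, which passed the filter only through BMP4, at 0.0143, 0.0707 and 0.385 FPKM, both genes of mural cells. The part of such cells in the levels of S100a4 and S100a6 was not tested. Among the other markers, Col1a1 was at 0.118, 0.105 and 0.287 FPKM in the 3 groups and Pecam1 at 0.0167, 0.23 and 0.0428. Col1a2 and Dcn stood at 0.0455 or less in the group means. For microglia and leukocytes, Itgam, Tyrobp, C1qa, C1qb and Ly6g were at 0 in all 9 libraries, and 2 of the 12 markers were tested. Lyz2 stood at 0, 13.8 and 34.8 FPKM and made up most of that list in the BMP4-containing groups. Cd68 stood at 2.22, 0.344 and 1.32 FPKM and was called lower with bFGF/BMP4 than in the control. Both were called higher with BMP4 than with bFGF/BMP4, a count that moved in 12 alternatives.

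Among 14 astrocyte markers, 10 rose and 1 fell in each comparison with the control, while 7 were higher and 2 lower with BMP4 than with bFGF/BMP4 and 5 were not called. Their summed level ran from 443 to 559 FPKM in the control, from 2240 to 2820 with bFGF/BMP4 and from 5550 to 6420 with BMP4. Most of the last step was Gfap, at 19.4 FPKM with bFGF/BMP4 and 2570 with BMP4. Slc1a2, the glutamate transporter, was lower with BMP4 than with bFGF/BMP4, at 65.5 ± 12 and 175 ± 18 FPKM (log2 fold change -1.43, adjusted p = 0.00031), as was Gjb6, a connexin gene, at 0.238 and 2.96 FPKM (-3.23, adjusted p = 0.00052). Gjb6 passed the filter only through its level with bFGF/BMP4, so the filter favoured a higher level there, without fixing the order against BMP4. Of 10 NSC markers, 2 rose and 2 fell with BMP4 and 2 rose and 5 fell with bFGF/BMP4 compared with the control. Of the oligodendrocyte lineage markers 10 were tested, with 1 higher and 7 lower with BMP4 and 1 higher and 6 lower with bFGF/BMP4. Among them Sox10 (0.603, 0 and 0 FPKM in the 3 groups), Gpr17 (0.343, 0.071 and 0.0156 FPKM) and Pdgfra (0.767, 0.134 and 0.118 FPKM) passed the filter only through the control. Sox10 and Gpr17 therefore had to be highest in the control, and for Pdgfra the filter favoured that order without fixing it. Among 8 neuronal markers, 4 rose and 1 fell with BMP4 and 2 rose and 1 fell with bFGF/BMP4. All these counts are read beside the shares over all genes tested. Compared with the control, 21.3% were called higher and 15.4% lower with BMP4, and 16.5% and 14.1% with bFGF/BMP4. Between BMP4 and bFGF/BMP4 the shares were 8.41% and 5.14%.

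S100a10 was the most abundant member in proliferating cells and fell in both BMP4-containing media. It measured 165, 242 and 158 FPKM in bFGF/EGF-treated NSCs, 6.16, 5.32 and 3.87 FPKM in bFGF/BMP4-treated NSCs and 29.6, 45.6 and 38.0 FPKM in BMP4-treated NSCs. The groups did not overlap, and the lowest values were those with bFGF and BMP4 together. S100a10 fell by 5.17 log2 units with bFGF/BMP4 (36.8-fold lower, SE 0.23, adjusted p = 1.6e-07) and by 2.31 with BMP4 (4.99-fold lower, SE 0.23, adjusted p = 1.7e-05). BMP4 alone left it 7.37-fold above bFGF/BMP4 (log2 fold change 2.86, adjusted p = 2.2e-05).

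Anxa2, which encodes the annexin that holds S100A10 in a heterotetramer at membranes, moved in the opposite direction. It stood at 5.53, 10.4 and 6.60 FPKM in the control, at 14.3, 20.7 and 19.2 FPKM with bFGF/BMP4 and at 15.7, 22.7 and 12.0 FPKM with BMP4. It rose with bFGF/BMP4 (log2 fold change 1.29, adjusted p = 0.0034) and with BMP4 (1.15, adjusted p = 0.0053), and both BMP4-containing groups overlapped. The ratio of S100a10 to Anxa2 FPKM was 29.8, 23.2 and 24 in the control, 0.432, 0.257 and 0.201 with bFGF/BMP4 and 1.88, 2.01 and 3.16 with BMP4. In FPKM, S100a10 thus exceeded Anxa2 in every control and BMP4 library and lay below it in all 3 bFGF/BMP4 libraries. Ahnak, which encodes the giant scaffold that the S100A10 and annexin A2 complex anchors at the membrane, was at 0.0207 to 0.0454 FPKM in the control, 0.0425 to 0.153 with bFGF/BMP4 and 6.23 to 10.8 with BMP4. Its rise with BMP4 was 6.04 log2 units over the control (adjusted p = 4.1e-07) and 5.64 over bFGF/BMP4 (adjusted p = 5e-06), and Ahnak passed the filter only through its level there. Kcnk3, which encodes a potassium channel whose surface level S100A10 affects, was at 1.27 ± 0.32, 0.173 ± 0.05 and 1.97 ± 0.35 FPKM, lower with bFGF/BMP4 than in the control (log2 fold change -2.32, adjusted p = 6.9e-05) and than with BMP4 (adjusted p = 4.9e-05).

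**Figure D3:**
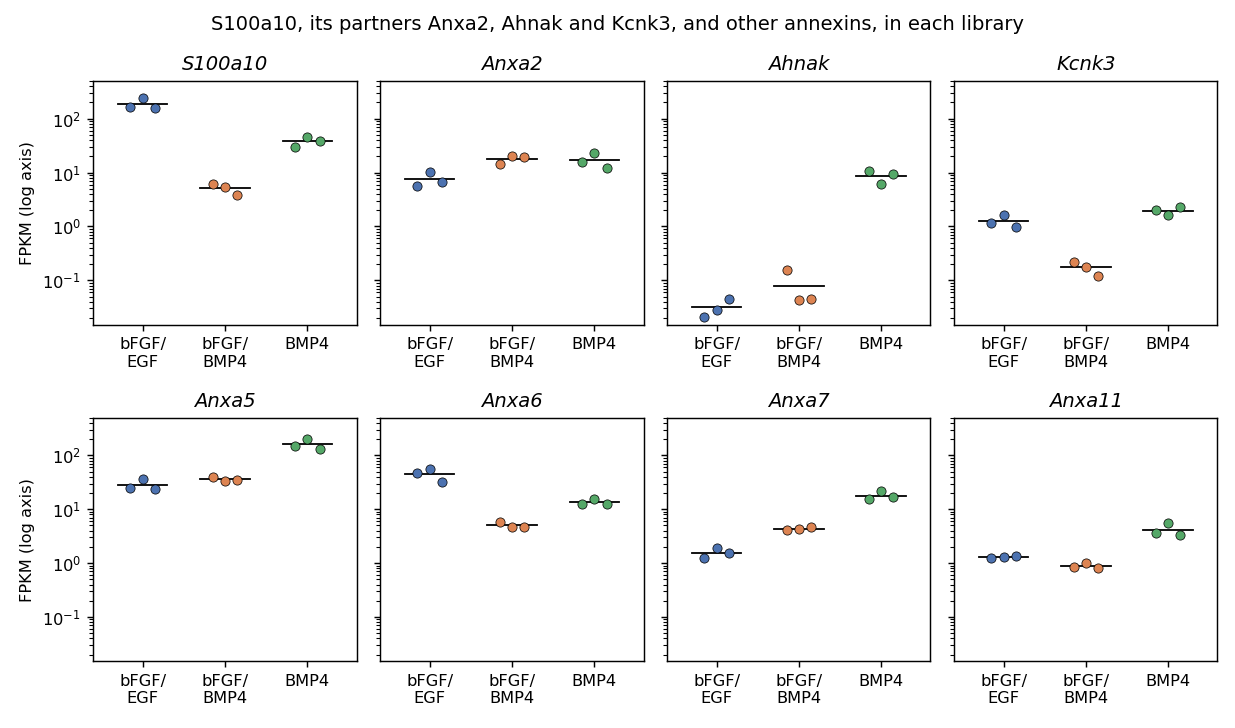
FPKM of S100a10, of its partners Anxa2, Ahnak and Kcnk3 and of further annexins in each library (log axis, points for libraries, lines for group means). S100a10 ran from 242 down to 3.87 FPKM while Anxa2 stayed between 5.53 and 22.7, and Ahnak was at 0.153 FPKM or less in the 6 libraries with bFGF in the last medium and at 6.23 or more with BMP4 alone.

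S100a11, which lies next to S100a10 and encodes a partner of annexin A1, was low in a single group. It measured 55.3, 83.8 and 44.2 FPKM in bFGF/EGF-treated NSCs, 6.09, 6.00 and 5.19 FPKM in bFGF/BMP4-treated NSCs and 69.2, 115 and 54.2 FPKM in BMP4-treated NSCs. The control and BMP4 libraries overlapped, and the bFGF/BMP4 libraries lay far below both. S100a11 was 10.6-fold lower with bFGF/BMP4 than in the control (log2 fold change -3.34 ± 0.28 SE, adjusted p = 1e-05), and with BMP4 it was 13.8-fold higher than with bFGF/BMP4 (3.69 ± 0.28, adjusted p = 1.9e-05). Between BMP4 and the control the log2 difference was 0.36 (95% interval -0.28 to 1, adjusted p = 0.32), and it was not called. The ratio of S100a10 to S100a11 FPKM ran from 2.88 to 3.58 in the control, from 0.746 to 1.01 with bFGF/BMP4 and from 0.397 to 0.701 with BMP4. Both neighbours were called lower with bFGF/BMP4, and with BMP4 S100a10 was called and S100a11 was not. A pseudogene of S100a11 is annotated on another chromosome, and how its reads were assigned is not given in the sources used here.

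Anxa1, the best known partner gene of S100A11, was low throughout, at 0.0955, 0.0217 and 0.322 FPKM, and was called higher with BMP4 than with bFGF/BMP4 on 46 and 3 fragments, having passed the filter only through its level with BMP4. Anxa6, whose protein also binds S100A11, had an order like that of S100a10, at 45 ± 13, 5.05 ± 0.65 and 13.5 ± 1.7 FPKM, and was lower with bFGF/BMP4 (log2 fold change -3.10, adjusted p = 1.8e-06) and with BMP4 (-1.70, adjusted p = 6.3e-05). Anxa5 was at 28.6 ± 7.1, 36.1 ± 3.7 and 160 ± 37 FPKM and rose with BMP4 (2.48, adjusted p = 4.7e-06). Anxa7 rose from 1.55 ± 0.33 to 4.38 ± 0.29 FPKM with bFGF/BMP4 (adjusted p = 1e-04) and to 18 ± 3.1 with BMP4 (adjusted p = 3.1e-07). Anxa11, which encodes a partner of S100A6, rose from 1.29 ± 0.052 to 4.19 ± 1.2 FPKM with BMP4 (adjusted p = 0.00013). Of the 6 annexins listed, Anxa2 was the only one not called higher with BMP4 than with bFGF/BMP4.

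Over the whole list of 46 partner and receptor genes of S100 proteins, 42 were tested. With BMP4, 10 of them rose and 5 fell compared with the control, and with bFGF/BMP4 10 rose and 11 fell. Between BMP4 and bFGF/BMP4, 11 were higher with BMP4 and 1, Tlr4, was lower. These are 15, 21 and 12 of the 42 tested, read beside the 36.6%, 30.6% and 13.5% of all genes called in the same comparisons. The median log2 fold changes of the list were 0.44, -0.22 and 0.34, beside 0.10, 0.06 and 0 over all genes. S100B is known to bind the filament proteins encoded by Gfap and Vim. Gfap, the astrocyte filament gene, stood at 0.0926 ± 0.038, 19.4 ± 2.4 and 2570 ± 440 FPKM, and Vim, which encodes vimentin, at 677 ± 76, 167 ± 18 and 892 ± 130 FPKM. Vim thus fell with bFGF/BMP4 (log2 fold change -2.02, adjusted p = 1e-05) as S100a10 and S100a11 did. Gap43, which encodes a growth cone protein, fell from 331 to 13.1 FPKM with bFGF/BMP4 (adjusted p = 1.9e-07) and to 40.6 with BMP4 (adjusted p = 1.8e-06).

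S100a16, a widely expressed member, was among the most abundant in every group. It stood at 57.1, 82.0 and 55 FPKM in the control, at 48.3, 54.2 and 65.2 FPKM with bFGF/BMP4 and at 98.2, 128 and 109 FPKM with BMP4. The control and bFGF/BMP4 libraries overlapped, with a log2 difference of -0.20 (95% interval -0.61 to 0.21, adjusted p = 0.41). All BMP4 libraries lay above the rest. BMP4 exceeded bFGF/BMP4 by 1.00 log2 unit (95% interval 0.59 to 1.41, adjusted p = 0.0031), which is at the 2-fold limit of the call, and fell to between 0.90 and 0.99 in 8 alternatives, among them leaving out replicate 1 or 2 of bFGF/BMP4 or replicate 2 of BMP4. Compared with the control the difference was 0.81 (95% interval 0.40 to 1.22, adjusted p = 0.004), past the p limit and under 2-fold.

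**Figure D4:**
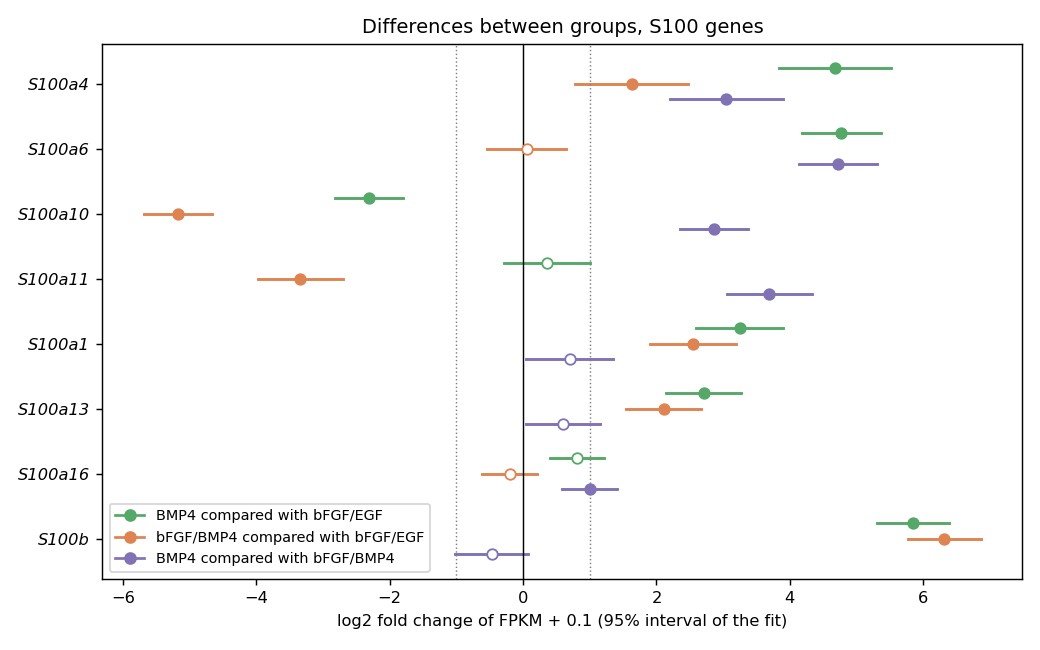
Log2 fold change of FPKM + 0.1 for the 8 S100 genes in the 3 comparisons, with 95% intervals of the limma fit, filled symbols for differences that were called and dotted lines at 2-fold. S100a6 and S100a4 were called higher in both comparisons with BMP4, S100a1, S100a13 and S100b were called in both comparisons with the control, and S100a16 between BMP4 and bFGF/BMP4 lay at the 2-fold line.

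The summed level of the 8 members was 331 ± 87 FPKM in bFGF/EGF-treated NSCs, 199 ± 12 in bFGF/BMP4-treated NSCs and 415 ± 110 in BMP4-treated NSCs, with ranges of 271 to 431, 186 to 211 and 348 to 542 FPKM. The control and BMP4 ranges overlapped and that of bFGF/BMP4 lay below both. The make-up of the sum differed more than its size. In the control S100a10 held 57% ± 1.3 of it, S100a16 19.6% ± 0.64 and S100a11 18.2% ± 1.7, and the other 5 members held the small remainder. With bFGF/BMP4 the sum was shared by S100a16 (28% ± 2.6), S100b (27.7% ± 2.4), S100a13 (20.1% ± 1.4) and S100a1 (18.3% ± 2.8), while S100a10 held 2.6% ± 0.74. With BMP4 no member held more than the 27.5% ± 3.6 of S100a16, and S100a11 (18.8% ± 3.2), S100a13 (14.9% ± 0.98), S100a1 (14.4% ± 1.8), S100b (9.74% ± 0.51) and S100a10 (9.2% ± 1.3) followed.

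Since FPKM is per length, the members can be ordered within a group. In the control S100a10 led with no overlap, S100a16 and S100a11 overlapped in second place, S100a13 and S100a1 overlapped below them, and S100b and S100a6 overlapped under 1 FPKM. With bFGF/BMP4, S100a16 overlapped S100b, S100a13 overlapped S100a1, and S100a11 overlapped S100a10, with gaps between these pairs. With BMP4 each of the 6 most abundant members overlapped its neighbour in the order, from S100a16 down to S100a10, and S100a6 and then S100a4 lay below them without overlap.

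**Figure D5:**
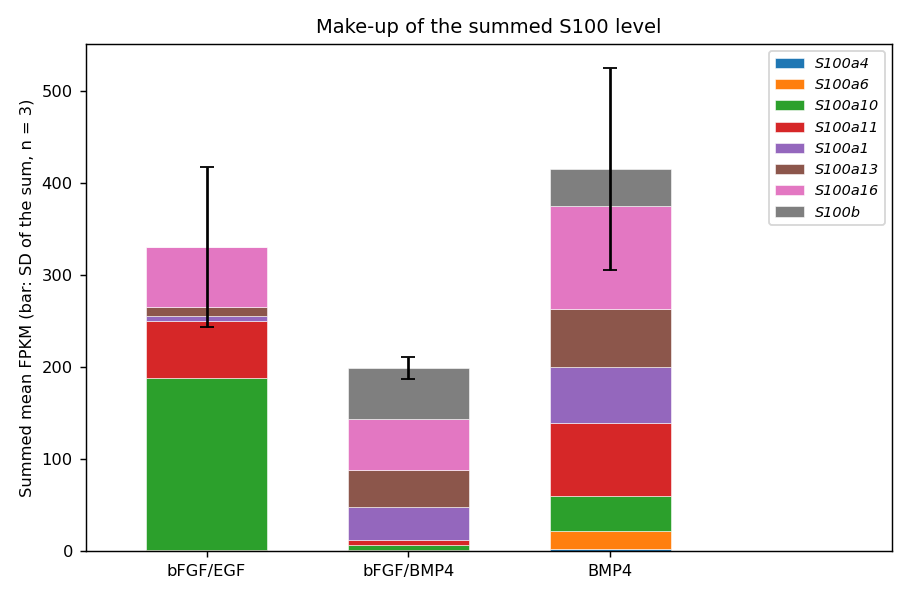
Mean FPKM of the 8 S100 genes stacked by group, with bars for the SD of the sum over 3 libraries. The sum was 331 FPKM with bFGF/EGF, of which S100a10 held most, 199 with bFGF/BMP4 and 415 with BMP4, where S100a16, S100a11, S100a13, S100a1, S100b and S100a10 each held a visible share.

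Among 7898 or 7899 genes with a mean of at least 5 FPKM, those whose log2 levels followed each member most closely over the 9 libraries were listed as a description, since the libraries share their 3 groups. For S100b they were Lrp10, Aldh7a1 and Smpd1, each with r = 0.998, and for S100a10 Fam181a (0.995), Gamt (0.991) and Aldh1l1 (0.991). Aldh1l1, often used to mark astrocytes, thus followed S100a10 and not S100b, with 135, 24.2 and 58.1 FPKM in the 3 groups. For S100a6 the list held Tspan17 (0.996), Cyth3 (0.995) and Slc16a1 (0.994), the last a lactate transporter at 18.8, 19.7 and 454 FPKM. S100a11 was followed by Smpdl3b (0.993), Gpx1 (0.991) and Lmna (0.990), S100a4 by Capn2 (0.994), Pdp1 (0.992) and Cpm (0.991), and S100a13 by Map1lc3b (0.997), Chchd10 (0.995) and Idh3b (0.995). S100a1 was followed by Slc25a20 (0.995), Gpx8 (0.994) and S100a13 itself. For S100a16 likeness was looser, with Pxdc1 (0.982), Dap (0.968) and Tax1bp3 (0.960).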

How the data were processed

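Total RNA of 9 cultures (3 groups of 3) was sequenced on an Illumina instrument, and per the submitters' processing notes the reads were trimmed with fastp 0.19.7, aligned to mm39 with HISAT2 2.0.5 and counted with featureCounts 1.5.0-p3. The authors deposited 1 table of FPKM values per gene and library. The annotation release, the strand setting and the program that computed FPKM are not given in the sources used here. The authors tested counts with DESeq2. Their counts were not used here, and since the table analysed holds FPKM, limma 3.58.1 with a trend (R 4.3.3) was run on log2(FPKM + 0.1) over all 9 libraries, with genes at a mean of at least 0.1 FPKM and Benjamini-Hochberg adjustment over 20207 genes. Fold changes are on that scale, which understates the change of low genes, and folds between groups are ratios of mean FPKM. Symbols came from GENCODE vM39 for 54749 of 55704 identifiers.

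Fragments per gene were rebuilt in Python 3.11.15 from the smallest steps of the FPKM values for 52013 genes, and 99.2% of the implied gene lengths were whole within 0.05 bases. Intervals on fragments cover counting error only, and floors cover only that of the group without fragments. On simulated data for BMP4 compared with bFGF/BMP4 (20207 genes, 200 changed), 75% of changes of 2 log2 units and 89% of changes of 3 were called, with 7 false calls. The simulation drew normal noise around each gene's mean, without counting error and with fewer changed genes than were called in the data. Its rates therefore do not carry over to genes on few fragments. The members and lists were chosen with earlier results of these data known. Named were all members, the other S100 and fused S100 genes, the partner genes, the 2 widest changes in each direction of the remaining lists and the 3 genes most like each member in log2 level. Some markers and neighbouring or overlapping genes were named outside this rule, after their values were seen. Alternatives were another pseudocount, other filters, scalings and fits, and each library left out in turn.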

Additional observations from a re-analysis of the deposited data

How the results depend on the processing

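Of 477 recomputed log2 fold changes of the members, 462 kept their direction and their side of the call, 9 lost the call and 6 changed sign. The losses were 8 for S100a16 between BMP4 and bFGF/BMP4 (0.90 to 0.99 in place of 1.00) and that of S100a4 between bFGF/BMP4 and bFGF/EGF with a pseudocount of 1 (0.28). The sign changes were all of S100a6 between bFGF/BMP4 and bFGF/EGF, at -0.18 with quantile normalization, -0.04 with limma-voom on rebuilt fragments, -0.04 and -0.01 without bFGF/EGF replicate 1 or 3 and -0.03 and -0.06 without bFGF/BMP4 replicate 1 or 2, in place of 0.06 (-0.06 to 0.26 over the libraries left out). With each library left out, 6, 6 and 4 to 5 members were called for BMP4 and bFGF/BMP4 compared with bFGF/EGF and for BMP4 compared with bFGF/BMP4. Adjusted p alone, with no fold limit, called 7, 6 and 5 members.

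Over all genes, 7400, 6174 and 2738 were called in these comparisons. A pseudocount of 1 left 4364, 3544 and 1449, a filter at a mean of 1 FPKM left 1800 for BMP4 compared with bFGF/BMP4, where fewer genes entered, and adjusted p alone called 11096, 9819 and 4271. Leaving out a library gave 7000 to 7381, 5740 to 6213 and 2405 to 2719. Scaling moved the median of all genes between BMP4 and bFGF/EGF from 0.10 to -0.035 under quantile normalization. Leaving out replicate 2 of both bFGF/EGF and BMP4, and removing a trend with gene length, were chosen after seeing the data, and the length trend changed no member's call.

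Groups shared replicate numbers, but same-numbered libraries deviated from their group means with correlations of -0.0839 to 0.125, and 4 of 9 libraries correlated best with their own number, so the numbers were not read as a pairing. With the replicate number as a block in the fit, 6, 6 and 5 members and 7383, 6127 and 2612 genes were called. The depth limits S100a4 and S100a3, which rested on 6 and 3 fragments with bFGF/BMP4.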

Other observations

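Other genes with EF-hand motifs, which bind calcium through the same fold as the S100 proteins, moved in both directions. Of 54 listed genes 49 were tested. With BMP4 12 rose and 10 fell compared with the control, and with bFGF/BMP4 12 rose and 13 fell. Between the BMP4-containing groups, 7 were higher and 5 lower with BMP4. Of all genes tested, 36.6%, 30.6% and 13.5% were called in these comparisons. The median log2 fold changes of the list were 0.39, 0.09 and 0.13, beside 0.10, 0.06 and 0 over all genes. The second median of the list is 0.01 with floors on fragments. Genes absent from a group are set to a floor of 3 there, and genes at the floor in both groups are left out. Pvalb, which encodes the calcium buffer parvalbumin, stood at 0.0384 and 0.0617 FPKM in the control and with bFGF/BMP4, on 2 and 3 fragments, and at 5.32, 10.7 and 3.90 FPKM in the BMP4 libraries, the group through which alone it passed the filter. Hpcal4, a neuronal calcium sensor gene, was also highest with BMP4, at 0.105, 0.452 and 3.82 FPKM in the control, with bFGF/BMP4 and with BMP4. Caln1, which encodes a calmodulin-like protein of neurons, was high with bFGF/BMP4 instead, at 4.71, 6.44 and 6.08 FPKM, against 0.123, 0.324 and 0.312 FPKM with BMP4 (log2 fold change -4.09, adjusted p = 1.8e-05). Caln1 passed the filter only through its level with bFGF/BMP4, so the filter favoured a higher level there, without fixing the order against BMP4.

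Sparcl1, the hevin gene of astrocytes, stood at 39.4 ± 4.4, 1360 ± 180 and 1090 ± 52 FPKM in the 3 groups, an order shared with S100b, and its difference between the BMP4-containing groups was not called (adjusted p = 0.22). Ncald, which encodes neurocalcin delta, fell at each step, at 52.6 ± 7.6, 17.9 ± 2.8 and 3.6 ± 1.2 FPKM (adjusted p = 0.00043 with bFGF/BMP4, 8.4e-07 with BMP4 and 9.9e-05 between them). Kcnip1, which encodes a potassium channel subunit of the calcium sensor family, stood at 9.14, 0.74 and 0.269 FPKM. Smoc1, a secreted matricellular protein gene, stood at 55.2, 4.39 and 14.6 FPKM and Necab2 at 9.83, 0.744 and 4.89 FPKM, both lowest with bFGF/BMP4 as S100a10 was.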
